A study of Mus musculus with 28 samples.

Results

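Ncam1, L1cam, Chl1, Scn7a, Gfap, Xkr4, Csmd1 and Kirrel3 were grouped as genes of immature and non-myelinating Schwann cells, a grouping that was not tested here. Kirrel3 was found mainly at the earliest stage. The genes were taken by name, with earlier results of these data known, and are 8 of the 41605 gene identifiers in the count table. All 8 passed the filter on low counts and are among the 17700 genes tested. They were followed in bulk RNA-seq of peripheral nerve from wild-type C57BL/6J mice at 7 stages, each with 4 libraries, which makes 28. The libraries are labelled as embryonic days 13 and 17 (E13 and E17), both of which the study's design text places a fraction of a day later, and as postnatal days 1, 5, 14, 24 and 60 (P1, P5, P14, P24 and P60). No group was treated or mutant. Each E13 library came from various nerves distal to the dorsal root ganglia, pooled from 2 embryos of the same sex, and each E17 library from sciatic nerves pooled from 2 embryos. Each postnatal library came from the sciatic nerves of 1 mouse. Epineurium and perineurium were stripped from E17 on but not at E13, so the effect of age between E13 and E17 and that of the nerves taken and their dissection cannot be told apart.

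Schwann cell precursors of the early embryonic nerve become immature Schwann cells, which sort large axons out of bundles and then either myelinate or become non-myelinating (Remak) cells that keep several small axons in troughs of their surface. The adhesion molecules NCAM and L1 lie on immature Schwann cells and on axons, are lost where a cell turns to myelination and are kept by Remak cells. GFAP and the sodium channel-like protein encoded by Scn7a belong to the mature Remak cell. In whole-nerve RNA, fewer cells of a type and less RNA per cell cannot be told apart.

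Ncam1 encodes neural cell adhesion molecule 1, a homophilic adhesion molecule of the immunoglobulin superfamily. L1cam encodes the founding member of the L1 adhesion family, and Chl1 its close homologue. Kirrel3 encodes another immunoglobulin adhesion molecule, known at synapses. Scn7a encodes Nax, an atypical member of the voltage-gated sodium channel alpha subunits that responds to sodium concentration. Gfap encodes glial fibrillary acidic protein, an intermediate filament. Csmd1 encodes a very large transmembrane protein of CUB and sushi domains that inhibits complement, and Xkr4 a phospholipid scramblase of the XK-related family.

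All are protein-coding genes (GRCm38 coordinates, GENCODE M21). Ncam1 lies on chromosome 9 from 49502136 to 49798925 (minus strand), L1cam on X from 73853778 to 73896105 (minus), Chl1 on 6 from 103510586 to 103750211 (plus) and Scn7a on 2 from 66673425 to 66784914 (minus). Gfap lies on 11 from 102887336 to 102900912 (minus), Kirrel3 on 9 from 34485894 to 35036716 (plus), Csmd1 on 8 from 15892537 to 17535586 (minus) and Xkr4 on 1 from 3205901 to 3671498 (minus). Csmd1 spans 1643.0 kb, of which its 74 exon blocks fill 1.16%, whereas exons fill 31.07% of the 13.6 kb of Gfap. L1cam shares 100 exon bases on the same strand with Arhgap4, which held 11473 counts in all against 102866 for L1cam. Ncam1 shares 417 exon bases with the antisense gene Gm11149, which held 10 counts against 146229.

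The RefSeq promoter table (GRCm38.p6) held windows for 4 of the 8 genes (L1cam, Chl1, Scn7a and Gfap) and none for Ncam1, Kirrel3, Csmd1 and Xkr4. The windows of L1cam, Scn7a and Gfap are shown because L1cam was called lower, and Scn7a and Gfap higher, at P60 than at E17. Each runs from 250 to 5 bases before the start of transcription and holds no base of a GENCODE exon. The Chl1 window lies inside an annotated exon and is not shown. The table holds a second L1cam window, with 69.5% G and C and 20 CG dinucleotides, which overlaps 40 bases of an annotated exon and is not shown; it holds a GC box 26 bases before its start. The windows are on the minus strand, at chrX:73880839-73881084 for L1cam, chr2:66784915-66785160 for Scn7a and chr11:102897205-102897450 for Gfap. They are written 5′ to 3′, with matches to the motifs named below in capitals.
L1cam: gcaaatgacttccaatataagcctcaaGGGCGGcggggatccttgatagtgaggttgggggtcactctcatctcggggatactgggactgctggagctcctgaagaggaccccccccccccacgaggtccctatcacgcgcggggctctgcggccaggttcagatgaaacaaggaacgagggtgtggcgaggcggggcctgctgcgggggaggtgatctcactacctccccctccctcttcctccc
Scn7a: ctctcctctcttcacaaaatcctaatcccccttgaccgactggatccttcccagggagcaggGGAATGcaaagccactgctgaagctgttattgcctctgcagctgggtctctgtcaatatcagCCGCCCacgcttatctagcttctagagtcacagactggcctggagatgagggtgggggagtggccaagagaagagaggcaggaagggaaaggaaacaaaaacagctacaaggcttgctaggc
Gfap: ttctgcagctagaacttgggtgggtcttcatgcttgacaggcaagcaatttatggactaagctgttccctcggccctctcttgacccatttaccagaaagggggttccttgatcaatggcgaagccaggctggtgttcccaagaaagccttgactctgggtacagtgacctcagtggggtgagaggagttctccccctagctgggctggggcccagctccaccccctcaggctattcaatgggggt

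Of the 3 windows shown, that of L1cam is the richest in G and C, at 63%, with 12 CG dinucleotides, against 53.7% and 3 for Scn7a and 55.7% and 2 for Gfap. The medians over all 32851 windows of the table are 52% and 5. On both strands, the windows were searched for the TATA box TATAAA, the SOX motifs ACAAAG and ACAATG, the TEAD motif GGAATG, the GC box GGGCGG and the AP-1 motifs TGAGTCA and TGACTCA. L1cam and Scn7a each hold a GC box, 223 and 126 bases before the start, and Scn7a a TEAD motif 188 bases before it. Of all windows of this length, 32.2% hold a GC box, 12.5% the TEAD motif, 25% a SOX motif, 7.5% the TATA box and 4.42% an AP-1 motif. A match is a description of the letters, and the absence of one in the Gfap window says only that these letters are not there. The starts used lie 15271 (L1cam), 3712 (Gfap) and 4 (Scn7a) bases inside the longest gene model.

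Total counts ran from 13899895 to 37662780 a library. Values below are in CPM, read counts per 1e+06 counts of the library, scaled between libraries by the trimmed mean of M-values (TMM). The Schwann lineage markers Sox10, Erbb3, S100b and Foxd3 had means of 117, 221, 14 and 11.5 CPM at E13 and of at least 326, 345, 43.5 and 22.1 CPM at every later stage. The 10 markers of neuronal cell bodies summed to between 1560 and 2770 CPM at E13 and to between 10.6 and 58.2 CPM in later libraries. The 8 markers of skeletal muscle reached 584 CPM in 1 E13 library and at most 21.8 CPM later. By base composition, 3 libraries stood apart. In E13 replicate 1, the deviation from the stage mean fell with the GC content of the transcript (slope of -0.93), in E13 replicate 4 it rose (0.73), and in P1 replicate 1 it fell (-0.43), against slopes between -0.16 and 0.2 in the other 25 libraries.

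**Figure D1:**
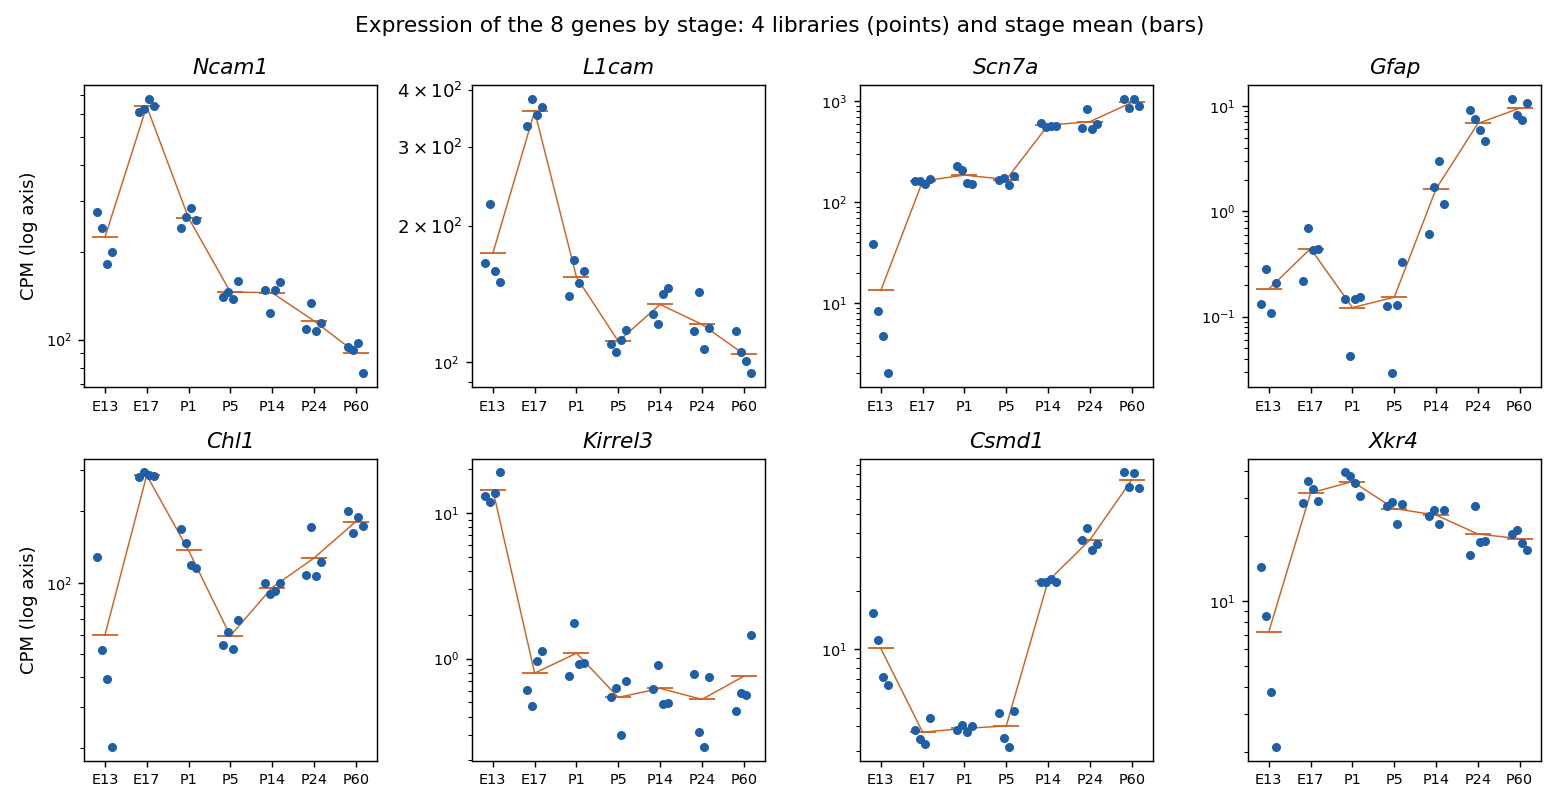
CPM (log axis, its range set per gene) of each of the 8 genes at the 7 stages, with 1 point per library and a bar at the mean of the 4 libraries. Ncam1, L1cam and Chl1 are highest at E17 (means of 638, 359 and 284 CPM), Scn7a, Gfap and Csmd1 at P60 (977, 9.51 and 75 CPM), Kirrel3 at E13 (14.4 CPM) and Xkr4 at P1 (35.9 CPM).

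The genes did not share a time course. Ncam1 and L1cam were highest at E17 and lowest at P60, with stage means 7.08-fold and 3.45-fold apart. Scn7a, Gfap and Csmd1 were highest at P60. Chl1 had its maximum at E17 (284 CPM), a low at P5 (59.7 CPM, level with 60 CPM at E13) and came back to 181 CPM at P60. Xkr4 was highest at P1 and changed little after E17, the stage means from there on being 1.84-fold apart, and Kirrel3 was found mainly at E13. All 8 changed over the 7 stages (edgeR quasi-likelihood F test, adjusted p of at most 8.5e-06, and stage means at least 2-fold apart), as did 70% of all genes tested. A gene was called between a pair of stages at an adjusted p under 0.05 and a fold of at least 2.

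Per length, Ncam1 was at 73.6 ± 3.41 CPM per kb of exons at E17 (SD, n = 4), against 48.9 for L1cam and 23.1 for Chl1, and at P60 it was at 10.4 CPM per kb, against 14.2 and 14.8. In the 4 E13 libraries it measured 275, 242, 183 and 201 CPM, and in those of E17 610, 623, 678 and 640 CPM. The P1 libraries had 243, 266, 284 and 259 CPM, and the P5 libraries 140, 146, 138 and 159 CPM. The E17 libraries stood above every other library, and those of P1 overlapped those of E13 but not those of P5. Later values were 148, 124, 149 and 158 CPM at P14, 109, 134, 107 and 114 CPM at P24, and 93.9, 92.4, 97.6 and 76.4 CPM at P60. Ncam1 rose 2.83-fold from E13 to E17 (log2 fold change of 1.5 ± 0.11 SE, adjusted p = 1.1e-11, edgeR) and fell 2.43-fold from E17 to P1 (-1.28 ± 0.11, adjusted p = 1.1e-09). From P1 to P5 the 4 libraries of each stage did not overlap, but the difference of -0.85 ± 0.11 (adjusted p = 3.5e-06) was under the 2-fold limit. In the order of the levels, P5 and P14 (0.01 ± 0.11 apart) overlapped and were not called, nor were P14 and P24 (0.32 ± 0.11, adjusted p = 0.108) or P1 and E13 (0.22 ± 0.11, adjusted p = 0.085).

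L1cam had the same stages at its top and bottom in a narrower range. It measured 165, 223, 159 and 150 CPM at E13, 333, 383, 353 and 367 CPM at E17, and 140, 168, 149 and 159 CPM at P1. From P5 on, its 16 libraries lay between 94.2 and 146 CPM. E17 was clear of all other stages, whereas each of the remaining neighbours in the order, from E13 at 174 CPM through P1, P14, P24 and P5 to P60 at 104 CPM, overlapped the next and was not called. L1cam rose 2.06-fold from E13 to E17 (log2 fold change of 1.04 ± 0.11, adjusted p = 8.6e-09) and fell 2.33-fold to P1 (-1.22 ± 0.11, adjusted p = 2.3e-09). After that no neighbouring pair of stages was called, and P60 was 0.56 ± 0.11 below P1 on the log2 scale (adjusted p = 1e-04), under the 2-fold limit. The rise to E17 lies near that limit: it was 0.79 with no scaling factors beyond library size, 0.99 without E13 replicate 3 and 0.98 without E13 replicate 4, which ended the call.

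Chl1 fell and came back. Its E13 libraries spread from 129 CPM in replicate 1 over 52.0 and 39.3 CPM to 20.3 CPM in replicate 4, whereas those of E17 measured 280, 292, 283 and 282 CPM. It had 168, 148, 119 and 115 CPM at P1 and 54.5, 61.7, 52.8 and 69.8 CPM at P5. The P5 libraries were below every library of E17, P1 and the later stages. Then followed 100, 89.6, 92.2 and 99.9 CPM at P14, 107, 171, 106 and 122 CPM at P24, and 202, 162, 189 and 173 CPM at P60. Chl1 rose from E13 to E17 (log2 fold change of 2.24 ± 0.31, adjusted p = 5.1e-07), by 2.92 on the log2 scale without E13 replicate 1 and 2.83 with limma-voom. It fell 2.07-fold from E17 to P1 (log2 fold change of -1.05 ± 0.30, adjusted p = 0.00814) and 2.30-fold from P1 to P5 (-1.20 ± 0.30, adjusted p = 0.00482). Of the later steps none was called alone, but P60 was 1.60 ± 0.30 above P5 (adjusted p = 6.3e-05, with 26.7% of all genes called in that pair). P60 and P1 overlapped and differed by 0.40 ± 0.29 (adjusted p = 0.244). The fall from E17 to P1 was -0.97 without P1 replicate 3 or without P1 replicate 4, just under the 2-fold limit.

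Kirrel3 was seen at E13, with 13, 12, 13.6 and 18.9 CPM, on 296 to 394 counts. In the 24 later libraries it lay between 0.247 and 1.75 CPM, on 5 to 42 counts, and all of these were below every E13 library. It fell 18-fold from E13 to E17 (log2 fold change of -4.17 ± 0.37, adjusted p = 1.9e-10). Among the later stages no neighbours in time were called, and of the other pairs only P24 against P1 was, at -1.05 ± 0.39 (adjusted p = 0.0257) with overlapping libraries, in a pair in which 29.7% of all genes were called. All 10 neuronal cell body markers were also called lower at E17 than at E13 (21.2% of all genes), with a median log2 fold change of -6.61 (-0.08 over all genes). Of these, 5 were below 1 CPM on average at E17. Their part in the E13 values of Kirrel3 and of the other members was not tested.

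Scn7a was, per length, the most abundant of the 8 genes from P5 on, reaching 133 ± 13.8 CPM per kb of exons at P60. At E13 its libraries had 38.4, 8.24, 4.69 and 2.00 CPM, the widest spread of the 8 genes within that stage. It then held a plateau, with 161, 164, 151 and 171 CPM at E17, 227, 208, 155 and 153 CPM at P1, and 167, 175, 149 and 183 CPM at P5. These 3 stages overlapped, and none of them was called against the next. The P14 libraries, at 618, 564, 572 and 572 CPM, were all above the plateau. P24 followed with 544, 848, 533 and 594 CPM and P60 with 1066, 869, 1060.3 and 911 CPM, so that every P60 library was above every P24 library. Scn7a rose 12-fold from E13 to E17 (log2 fold change of 3.59 ± 0.47, adjusted p = 2.9e-07) and 3.45-fold from P5 to P14 (1.79 ± 0.44, adjusted p = 0.00254). The size of the first rise rests on E13 replicate 1: it was 4.99 on the log2 scale without that library and 5.02 with limma-voom. The differences from P14 to P24 (0.12 ± 0.42, adjusted p = 0.964) and from P24 to P60 (0.63 ± 0.42, adjusted p = 0.369) were not called. The spread at E13 enters these errors: the quasi-dispersion of Scn7a was 5.53 over all stages and 1.24 without E13, and without the E13 libraries P60 against P24 had an adjusted p of 0.00039 at 0.65, still under the 2-fold limit.

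Gfap was at the edge of detection until P5. The 16 libraries from E13 to P5 held 1 to 13 counts each, from 0.029 to 0.687 CPM. At P14 it reached 0.614, 1.70, 3.02 and 1.18 CPM, at P24 9.07, 7.53, 5.93 and 4.67 CPM, and at P60 11.7, 8.20, 7.4 and 10.7 CPM, on 12 to 171 counts. The libraries of P14 stood above all those of P5, and those of P24 above all those of P14, while P24 and P60 overlapped. Gfap rose 10.7-fold from P5 to P14 (log2 fold change of 3.42 ± 0.49, adjusted p = 5.2e-06, and 4.15 without P5 replicate 4) and 4.12-fold from P14 to P24 (2.04 ± 0.37, adjusted p = 0.00081). Per length it stayed low, at 2.25 ± 0.483 CPM per kb at P60. Its earlier calls rest on 1 to 13 counts a library. The rise from E13 to E17 (1.28 ± 0.56, adjusted p = 0.0466, libraries overlapping) missed the threshold with DESeq2 size factors (adjusted p = 0.0517) and with library size only (adjusted p = 0.103), and the fall from E17 to P1 (-1.78 ± 0.58, adjusted p = 0.0198) did so without E17 replicate 2 (adjusted p = 0.0835) or without P1 replicate 2 (adjusted p = 0.0633).

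Csmd1 rose late. From 15.4, 11.2, 7.22 and 6.53 CPM at E13 it fell to between 3.12 and 4.81 CPM in the 12 libraries of E17, P1 and P5, which were not called against each other. The P14 libraries lay at 22.3, 22.2, 23.0 and 22.2 CPM. P24 gave 36.6, 42.4, 32.7 and 35.0 CPM, and P60 81.9, 69.3, 81.0 and 67.7 CPM. After P5, the libraries of each stage were above all those of the stage before. Csmd1 fell 2.72-fold from E13 to E17 (log2 fold change of -1.45 ± 0.20, adjusted p = 4.1e-07), rose 5.58-fold from P5 to P14 (2.48 ± 0.19, adjusted p = 1.9e-10) and 2.04-fold from P24 to P60 (1.03 ± 0.18, adjusted p = 0.00013). Between P14 and P24 the difference of 0.71 ± 0.18 (adjusted p = 0.015) was under the 2-fold limit. The last step lies at that limit, at 0.98 without P24 replicate 3 and 0.99 without P60 replicate 1 or without P60 replicate 3, whereas P60 was 1.74 ± 0.18 above P14 (adjusted p = 2.6e-08, with 12.9% of all genes called in that pair).

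Xkr4 changed least after E13. Its E13 libraries ranged from 14.4 CPM in replicate 1 over 8.52 and 3.79 to 2.11 CPM in replicate 4. All later libraries lay between 16.4 and 39.6 CPM. Xkr4 rose 4.36-fold from E13 to E17 (log2 fold change of 2.13 ± 0.31, adjusted p = 1.2e-06), and no later pair of neighbouring stages was called. That rise was 2.71 on the log2 scale without E13 replicate 1 and 2.97 with limma-voom. From 39.6, 38.0, 35.5 and 30.7 CPM at P1 it went to 20.6, 21.5, 18.7 and 17.2 CPM at P60, with no overlap. That difference was -0.88 ± 0.30 (adjusted p = 0.0118), under the 2-fold limit, and it was called at -1.08 with library size alone as the scale. P60 against E17 moved in the same way, from -0.71 to -1.02. Library size alone shifts the median of all genes by -0.22 and -0.31 in these comparisons, against -0.02 and 0 under TMM.

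**Figure D2:**
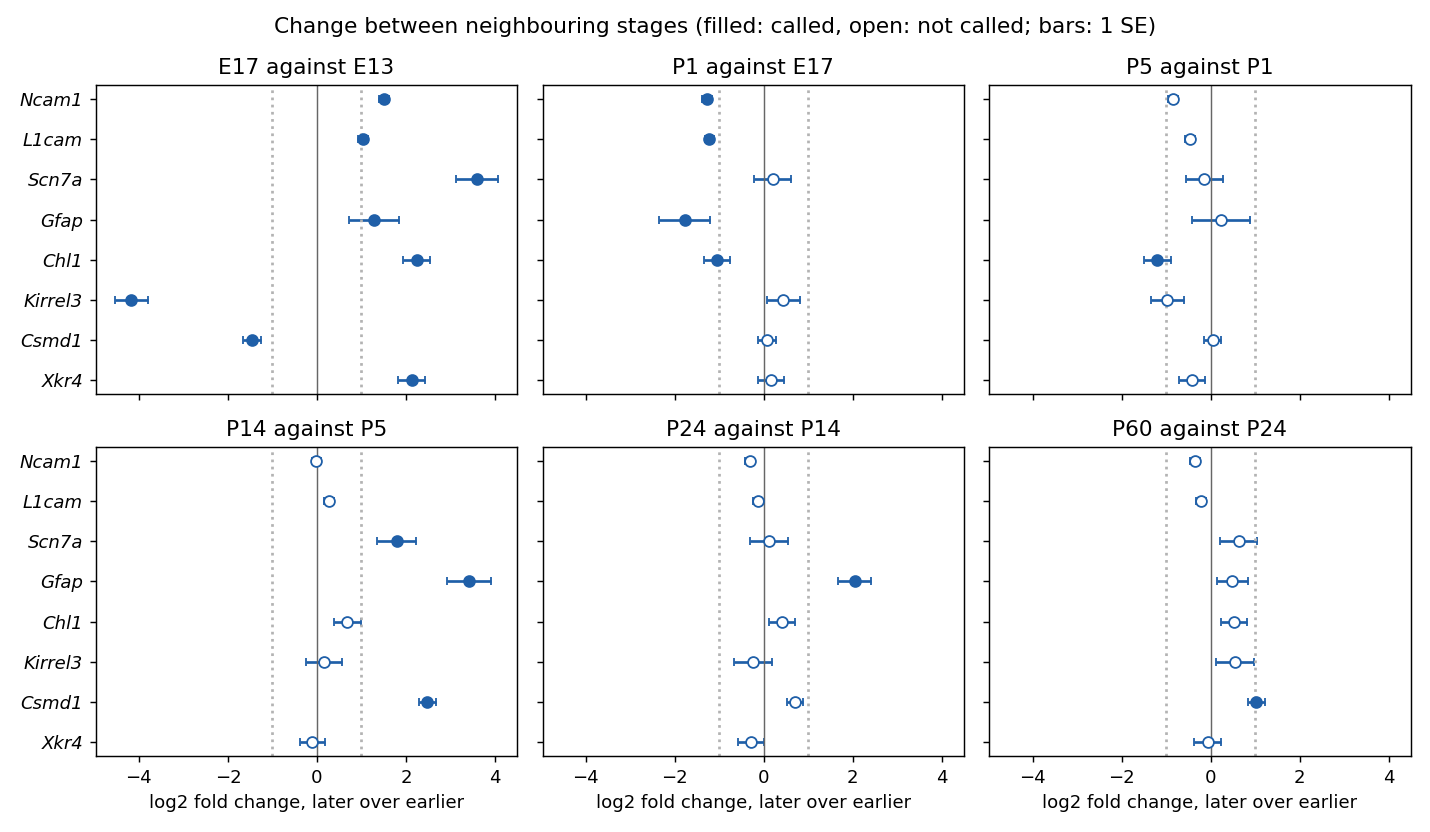
Log2 fold change (later over earlier stage, x axis) of the 8 genes (y axis) for the 6 pairs of neighbouring stages, with bars of 1 SE from the edgeR fit. Filled points were called, open points were not, and dotted lines mark the 2-fold limit at -1 and 1: all 8 points are filled in E17 against E13, and 3 in P14 against P5.

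Read by comparison, the step from E13 to E17 called all 8 genes, 6 higher (Ncam1, L1cam, Chl1, Scn7a, Gfap and Xkr4) and 2 lower (Kirrel3 and Csmd1), where 35.5% of all genes tested were called (14.2% higher and 21.2% lower). For 7 of them, all but Gfap, the 4 and 4 libraries did not overlap (46.8% of all genes). Gfap held 3 to 13 counts a library at these stages and passed the filter on low counts through its later stages. The median log2 fold change of the 8 genes was 1.39, against -0.08 over all genes. From E17 to P1, 4 were called (11.7% of all genes), all of them lower (5.41% of all genes): Ncam1, L1cam, Chl1 and Gfap. Here too Gfap rests on few counts, 1 to 13 a library, and was tested because of its later stages. The median of all 8 genes was -0.49, against 0. From P1 to P5 Chl1 was called, lower (5.84% of all genes in either direction and 1.79% lower), and with no fold minimum Ncam1 and L1cam would be too (17.6% of all genes). The median of the 8 was -0.44, against 0.

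After P5 the calls went upwards. From P5 to P14, Scn7a, Gfap and Csmd1 were called higher, where 12% of all genes were called and 7.11% called higher. From P14 to P24 it was Gfap (2.65% called, 1.51% higher), to which Csmd1 is added with no fold minimum (5.45%). From P24 to P60 it was Csmd1 (5.96% called, 2.55% higher), to which Ncam1, lower, is added with no fold minimum (16.1%). Over the postnatal period as a whole, P60 against P1 called 4 genes (35.5% of all genes), Scn7a, Gfap and Csmd1 higher (20.3% of all genes) and Ncam1 lower (15.2%). There Gfap rose 72.8-fold (log2 fold change of 6.19 ± 0.49, adjusted p = 2.1e-11), Csmd1 19.2-fold (4.26 ± 0.21, adjusted p = 6.2e-16) and Scn7a 5.25-fold (2.39 ± 0.45, adjusted p = 4.1e-05), and Ncam1 fell 2.92-fold (-1.54 ± 0.12, adjusted p = 6e-12). P60 against E17 called 5 (39.7% of all genes): Gfap (4.40 ± 0.44, adjusted p = 1.2e-09), Csmd1 (4.33 ± 0.21, adjusted p = 3.7e-16), Scn7a (2.59 ± 0.45, adjusted p = 1.4e-05), Ncam1 (-2.82 ± 0.12, adjusted p = 2.8e-17) and L1cam (-1.79 ± 0.12, adjusted p = 1.9e-13). The 4 and 4 libraries did not overlap for 6 genes in P60 against P1 (60.7% of all genes) and for 7 in P60 against E17 (67.7%), so that these shares lay near or a little above those of the whole table. These comparisons share libraries, and each is given with its own values.

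Scn7a, Chl1 and Xkr4, the members with the widest spread at E13, are also those with the lowest GC content of the transcript, at 40.2%, 39.9% and 39.5%, against 49.9% to 55.5% for the other 5. For these 3 the E13 order was the same, with replicate 1 highest and replicate 4 lowest, and Csmd1, at 50.3% GC, had that order too. With the trend on GC content taken off each library, Scn7a had 21.1, 7.87, 5.07 and 3.45 CPM at E13, Chl1 69.5, 49.6, 42.7 and 35.4 CPM, and Xkr4 7.64, 8.12, 4.14 and 3.72 CPM. The order remained for Scn7a and Chl1 in a narrower range, and for Csmd1 with 16.4, 11.1, 6.88 and 6.42 CPM. The rises of Scn7a, Chl1 and Xkr4 to E17 remained called, at 4.01, 2.51 and 2.38 on the log2 scale. The trend was fitted to deviations from the stage mean, so a GC effect shared by all E13 libraries stays in these values. Sox10 was at 34.1 CPM in E13 replicate 1 and between 118 and 170 CPM in the other E13 libraries. The part of base composition in the spread of single genes at E13 was not tested further.

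**Figure D3:**
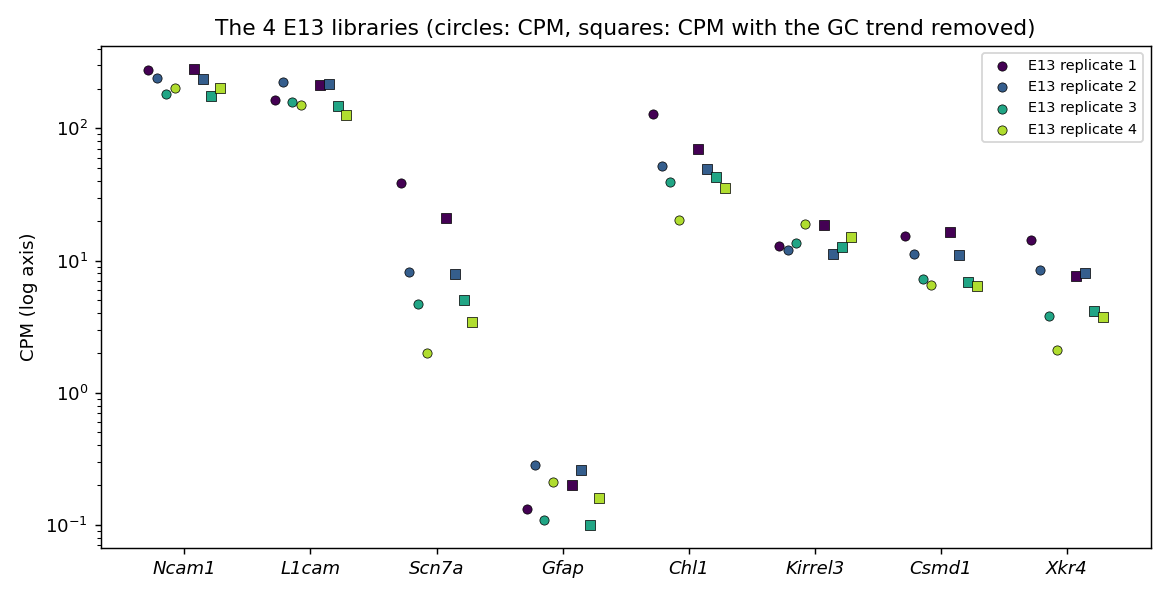
CPM (log axis) of the 8 genes in the 4 E13 libraries, with colours for the replicates, circles for CPM and squares for CPM after the trend on GC content was taken off. Scn7a runs from 38.4 to 2.00 CPM as measured and from 21.1 to 3.45 CPM with the trend removed, whereas Ncam1, L1cam and Kirrel3 spread little either way.

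Relative to Sox10, a transcription factor of the whole Schwann lineage, the genes were also followed as log2 ratios of counts. From E13 to E17, the step in which 6 of the genes were called higher in CPM, the ratios of these 6 overlapped, with differences in the mean of -0.18 (Ncam1), -0.64 (L1cam), -0.50 (Gfap), 0.87 (Chl1), 0.80 (Xkr4) and 2.75 (Scn7a). Those of Kirrel3 (-5.89) and Csmd1 (-3.05) did not overlap, as was so for 67% of all genes tested. The E13 means include replicate 1, where Sox10 was at 34.1 CPM against 118 to 170 CPM in the other E13 libraries. No rise or fall relative to Sox10 is read from the 6 overlapping differences. Sox10 itself was at a mean of 326 CPM at E17 and 449 CPM at P60 and was not called between them (log2 fold change of 0.46 ± 0.28, adjusted p = 0.151). The log2 ratio of Ncam1 to Sox10 went from 0.97 ± 0.06 (SD, n = 4) at E17 over -0.38 ± 0.40 at P1 to -2.30 ± 0.36 at P60, and that of L1cam from 0.14 ± 0.11 over -1.15 ± 0.40 to -2.09 ± 0.40. The ratio of Scn7a rose from -1.01 ± 0.14 at E17 to 1.13 ± 0.40 at P60, so that reads of Scn7a went from fewer to more than those of Sox10. From P1 to P60 the ratios changed without overlap for Ncam1 (-1.92), L1cam (-0.94) and Xkr4 (-1.25) downwards, and for Scn7a (2.03), Csmd1 (3.88) and Gfap (5.80) upwards, 6 of 8 where 46.1% of all genes did not overlap. The ratio of Chl1 at P60 was 0.04 from that at P1, with overlapping libraries. At E13 the ratio spread widely, from 0.44 to 3.01 for Ncam1 and from -6.19 to 0.17 for Scn7a, replicate 1 with its low Sox10 being the highest.

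**Figure D4:**
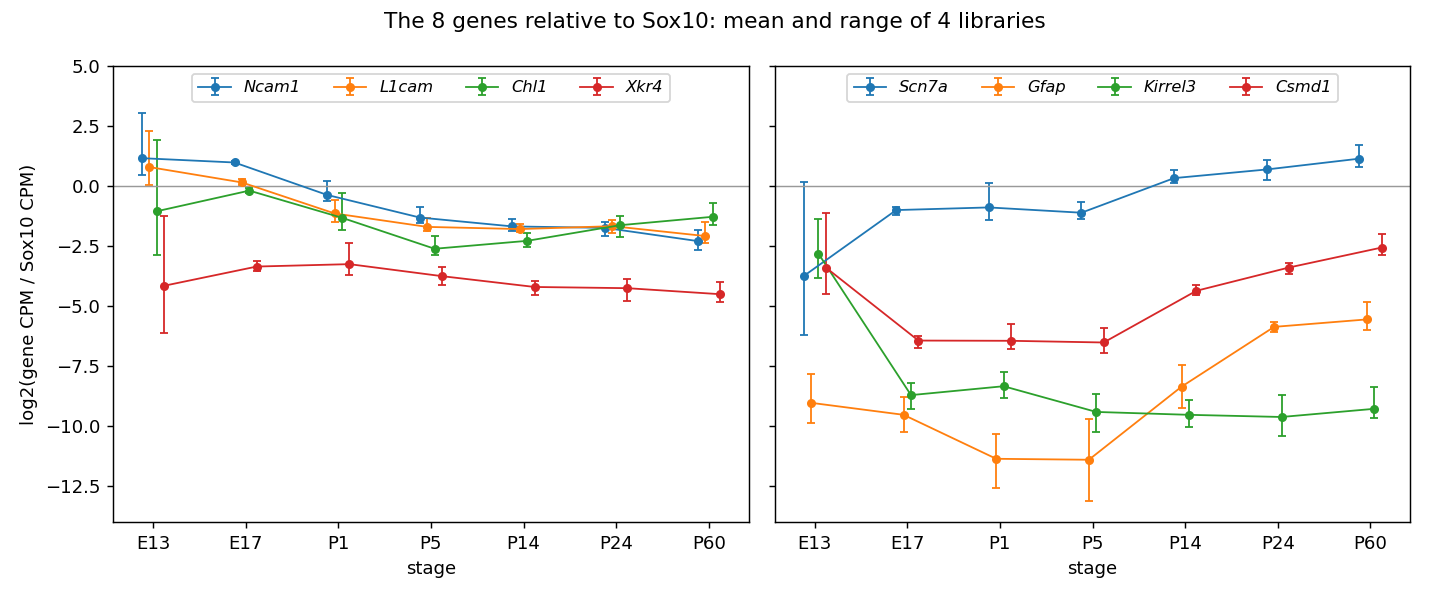
Log2 ratio of CPM of each gene to CPM of Sox10 by stage, as the mean of 4 libraries with bars from the lowest to the highest library. Left, Ncam1, L1cam, Chl1 and Xkr4, with Ncam1 falling from 0.97 at E17 to -2.30 at P60. Right, Scn7a, Gfap, Kirrel3 and Csmd1, with Scn7a rising from -1.01 to 1.13.

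Relatives of the 8 genes were compared over the same stages. Ncam2, the paralogue of Ncam1, rose from E13 to E17 (log2 fold change of 2.39 ± 0.32, adjusted p = 3.6e-07) and fell from E17 to P60 (-3.40 ± 0.34, adjusted p = 1.8e-09), from a mean of 60.1 to 5.70 CPM. St8sia2, which encodes a sialyltransferase that puts polysialic acid on NCAM, went from 90.6 CPM at E13 and 36.7 CPM at E17 to 1.46 CPM at P60, and was called lower in P60 against E17 (-4.65 ± 0.35, adjusted p = 4.8e-12). St8sia4, the other polysialyltransferase, had stage means between 3.93 and 14.4 CPM, the E13 libraries reaching 31.6 CPM. Of these 3 genes, 2 were called lower and none higher in P60 against E17, where 3097 of all 17700 genes tested were called lower.

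Nfasc and Nrcam, the other genes of the L1 family, took other courses than L1cam and Chl1. Nfasc, which encodes neurofascin of nodes and paranodes, fell from 74.3 CPM at E13 to 2.15 CPM at E17 (-5.10 ± 0.16, adjusted p = 2.9e-19), came back to 85.8 CPM at P1 (5.31 ± 0.16, adjusted p = 1.7e-19) and reached 681 CPM at P60. Nrcam, a nodal adhesion gene, rose from 63.0 to 142 CPM from E17 to P1 (1.17 ± 0.19, adjusted p = 2.3e-05), in the step in which L1cam and Chl1 fell. Per kb of exons, L1cam was at 48.9 CPM and Nfasc at 0.152 CPM at E17, and 14.2 and 48.1 CPM at P60.

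Among the sodium channel alpha subunits, 7 of the other 9 passed the filter. From E13 to E17, where Scn7a rose, 5 were called lower and none higher (21.2% and 14.2% of all genes), and from P5 to P14 none was called higher (7.11% of all genes). Scn9a, the channel Nav1.7 of nociceptive neurons, was at 48.2 CPM at E17 and 0.982 CPM at P60 (-5.60 ± 0.59, adjusted p = 3.9e-09). Scn8a, the channel of mature nodes, went from 29.3 CPM at E13 and 20.6 CPM at E17 to 7.72 CPM at P5 and back to 22.9 CPM at P60, which was not called against E17 (0.15 ± 0.15, adjusted p = 0.382). At P60 it stood at 1.45 CPM per kb of exons against 133 CPM per kb for Scn7a.

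Csmd2, a paralogue of Csmd1, fell from 11.6 CPM at E17 to 0.0675 CPM at P60 (-7.32 ± 0.55, adjusted p = 4.8e-12) while Csmd1 rose, and Csmd3 was at 6.50 CPM at E13 and at most 0.255 CPM on average later. Kirrel, a broadly expressed paralogue of Kirrel3, rose from 114 to 446 CPM from E13 to E17 (1.97 ± 0.15, adjusted p = 7.3e-12), the step in which Kirrel3 fell. Kirrel2 fell in the same step as Kirrel3, from 2.38 to 0.0289 CPM (-6.25 ± 1.12, adjusted p = 2.7e-05), and was at most 0.141 CPM on average later. Of the 7 XKR relatives, 6 were tested, and from E17 to P60 1 was called higher (Xkrx, 3.33 ± 0.63, adjusted p = 4.6e-05) and 2 lower (Xkr5 and Xkr7). In that pair 39.7% of all genes were called in either direction.

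**Figure D5:**
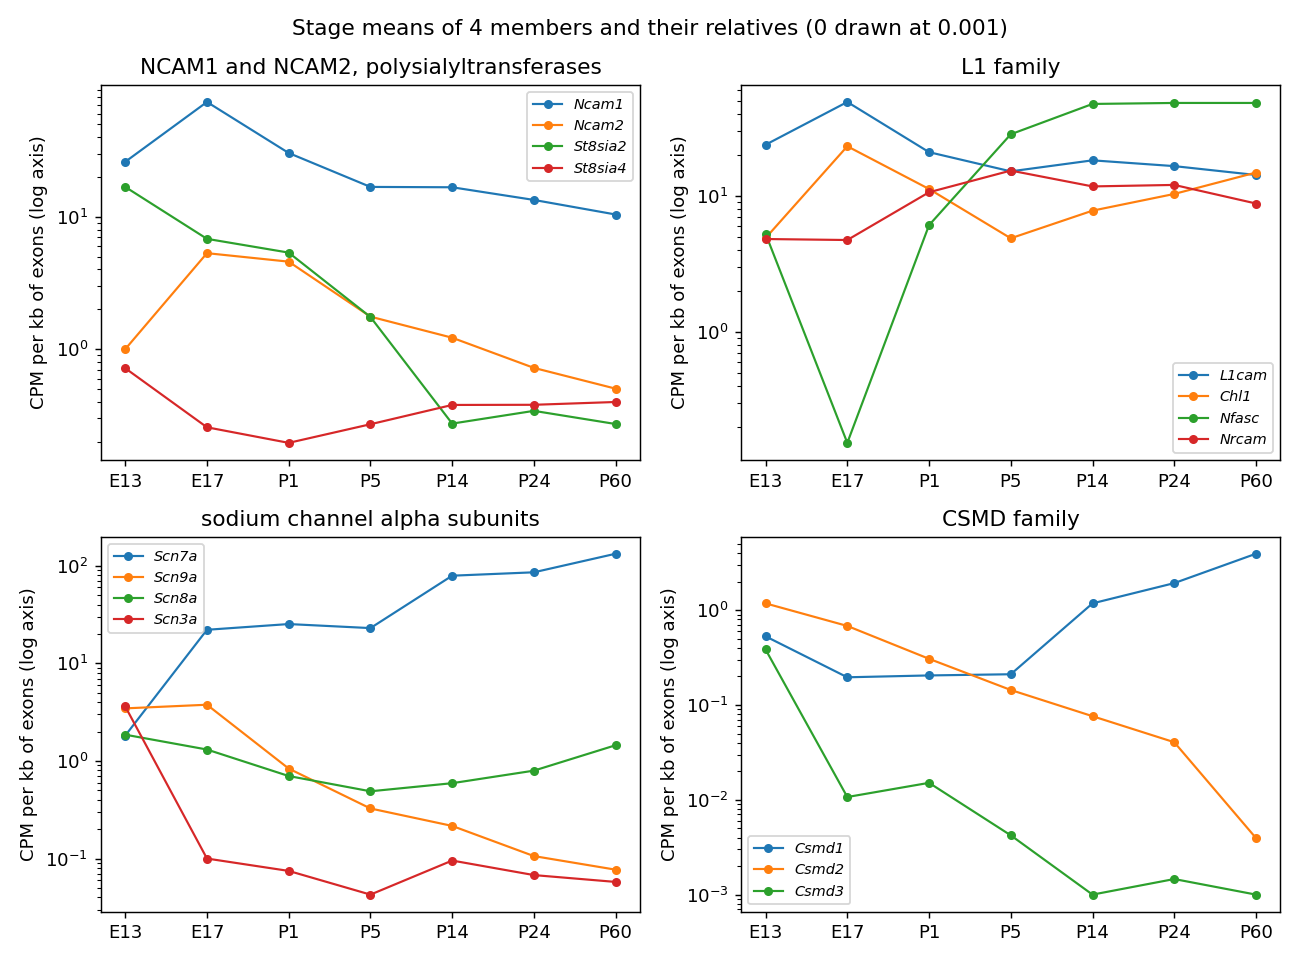
Stage means (CPM per kb of exons, log axis, with means of 0 drawn at the bottom of the axis) of Ncam1, L1cam with Chl1, Scn7a and Csmd1, each with relatives. Csmd1 rises from 0.211 at P5 to 3.94 at P60 while Csmd2 falls from 0.144 to 0.00395, and Nfasc goes from 5.25 at E13 to 0.152 at E17 and rises to 48.1 at P60, while L1cam goes from 48.9 at E17 to 14.2 at P60.

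Among 6 intermediate filament genes, none was called higher in the step from P5 to P14, where Gfap rose and 7.11% of all genes were called higher. In P60 against E17, where 39.7% of all genes were called in either direction, 2 were called higher, Nes (1.33 ± 0.13, adjusted p = 1.6e-09) and Des (2.49 ± 0.53, adjusted p = 0.00018). Synm (-1.37 ± 0.23, adjusted p = 9.9e-06) and Ina (-3.64 ± 0.40, adjusted p = 9.1e-09) were called lower there. Vim was at a mean of between 2230 and 2640 CPM from E17 on. Of 5 other genes of immature and non-myelinating Schwann cells, 3 were called lower and none higher in P60 against E17 (39.7% of all genes called in either direction, 3097 of 17700 lower). Ngfr, the neurotrophin receptor of immature Schwann cells, had its highest mean at E17, as Ncam1 and L1cam did, and fell from 544 to 36.2 CPM (-3.91 ± 0.16, adjusted p = 2.1e-17). Sox2 fell from 19.5 to 7.66 CPM (-1.35 ± 0.18, adjusted p = 2.3e-07) and Jun from 41.5 to 18.7 CPM (-1.15 ± 0.13, adjusted p = 2.4e-08). Cdh2, N-cadherin, was at 147 CPM at E13 and 152 CPM at E17 (0.05 ± 0.13, adjusted p = 0.764), unlike Chl1, and then took a course like it, falling to 25.8 CPM at P5 and rising to 57.5 CPM at P14 (1.15 ± 0.13, adjusted p = 1.2e-07), a step in which Chl1 was not called (0.68 ± 0.30, adjusted p = 0.0881). Gap43 was at 330 CPM at E13 and at most 8.18 CPM on average later.

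Beside these courses, other measures of the nerve moved too. Mki67, a marker of dividing cells, went from 1010 ± 27.9 CPM at E17 to 1.91 ± 0.57 CPM at P60. Mbp, which encodes myelin basic protein, went from 1120 ± 73.8 CPM at E17 to 51500 ± 5560 CPM at P14 and 28300 ± 3780 CPM at P60. The sum of 9 genes of myelinating Schwann cells reached 126000 CPM at P14. The part of these changes in the values of the 8 genes was not tested.

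The closest profiles were sought among 14379 genes by the root mean square difference of centred log2 stage means over the 7 stages. For L1cam they were Igsf3 (0.09), Hey1 (0.15) and Phlda1 (0.17), and for Ncam1 Flrt3 (0.18), Megf6 (0.25) and Kif24 (0.25). All 6 had their highest mean at E17 and their lowest at P60. Scn7a was nearest to Calhm5 (0.33), Itgb4 (0.34) and Prex2 (0.39). Itgb4 encodes an integrin subunit of the Schwann cell basal surface, and the study also uses it as a marker of perineurial cells. Gfap had no close match, with Lox (0.50), Lrg1 (0.51) and Nr1h3 (0.57) as the nearest. Chl1 was nearest to Ccdc160 (0.28), Atp10a (0.28) and Ahr (0.33), and Csmd1 to Scin (0.22), Hspb1 (0.26) and Kng2 (0.27). Xkr4 was nearest to Akap2 (0.11), Pakap (0.11), which share sequence, and Sgk3 (0.13), and Kirrel3 to Dkkl1, Prkar1b and Cntn5 (0.19 each). Among the 8 genes the closest were Ncam1 and L1cam (0.37), followed by Chl1 and Xkr4 (0.73), L1cam and Chl1 (0.76) and Gfap and Csmd1 (0.89), and the farthest apart were Scn7a and Kirrel3 (3.60).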

How the data were processed

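Libraries were prepared by the authors with a stranded poly(A) protocol and sequenced single-end. Per the labels and methods, reads were trimmed, aligned with STAR 2.6.1c and assigned to genes with featureCounts (build GRCm38.p5 in the submitters' notes), and the authors deposited raw counts per gene, with no normalization. The strand setting was not given in the sources used here. Counts were analysed with edgeR 4.0.16 in R 4.3.3: filterByExpr kept 17700 of 41605 genes, and 1 quasi-likelihood fit with stage as the only term used all 28 libraries, TMM scaling and Benjamini-Hochberg adjustment over all genes tested. SE is the log2 fold change over the root of F. CPM per kb divides by exon length, and the ratio to Sox10 adds 0.5 counts to each gene. Gene models were from GENCODE M21 (99.79% of identifiers matched). The 8 genes and the 17 other gene lists were chosen with earlier results of these data known. A Schwann lineage marker on these lists is not reported here. Named genes are the 8, their relatives and reference genes on these lists, and the 3 closest profiles each.

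Alternatives were the fold minimum, scaling, filter, test tool, a replicate block, the stages fitted, a correction for GC content and leaving out libraries. No 2 libraries were identical (chi-square per degree of freedom from 5.24 to 311 over 42 pairs within stages). Replicate numbers run from 1 to 4 at each stage. Their deviations from the stage means correlated above 0.1 for all 4 numbers in P1 against E17 (0.13 to 0.37) and in P60 against P1 (0.14 to 0.52). The stages came from different animals, so equal numbers do not pair samples, and the main fit holds no replicate term. The cause of these correlations was not tested. Per the study's methods each stage had 2 samples of each sex, which the labels do not assign. Total counts ran from 13899895 to 37662780 a library, and Gfap until P5 and Kirrel3 after E13 rest on few counts. The total limits counting error only.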

Additional observations from a re-analysis of the deposited data

Results flagged for a closer look

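In each of the 56 sets of 4 libraries (8 genes at 7 stages), the library farthest from its neighbours was compared with Dixon's critical value for 4 samples. Of these, 5 were past it, where chance gives about 1 in 20. Scn7a in P14 replicate 1 was at 618 CPM, against 564 to 572 CPM in the others. Csmd1 in P14 replicate 3 was at 23.0 CPM, against 22.2 to 22.3 CPM, a small distance in a stage with very little spread. Gfap in P1 replicate 2 was at 0.042 CPM, which is 1 count, against 0.146 to 0.155 CPM. Kirrel3 in P1 replicate 2 was at 1.75 CPM, against 0.765 to 0.931 CPM, and in P60 replicate 4 at 1.44 CPM, against 0.439 to 0.581 CPM. Without P60 replicate 4, Kirrel3 was called lower at P60 than at P1 (-1.03, adjusted p = 0.0368), and without P1 replicate 2 Gfap was no longer called between E17 and P1 (adjusted p = 0.0633).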

How the results depend on the processing

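Over 756 values under other settings, 727 kept their direction and side of the threshold, 8 lost a call, 13 gained one and 8 changed sign. With 1 library left out, 481 of 512 did so, 15 lost a call, 1 gained one and 15 changed sign. With no fold minimum, the genes called were 3 in P5 against P1, 2 in P24 against P14 and 2 in P60 against P24. In P5 against P1 the count was also 3 with library size only, 2 with limma-voom and 2 with E13 replicates 1 and 4 and P1 replicate 1 left out. The genes gained there were Ncam1 (-1.05) and Kirrel3 (-1.16) with library size only, and Kirrel3 with limma-voom (-1.04) and without the 3 libraries (-1.09). With 1 library left out, P60 against P24 called 0 to 1 genes.

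The sign of differences near 0 turned for Ncam1 in P14 against P5 with DESeq2 size factors and with the DESeq2 Wald test (0.01 in both). With library size only it turned for Csmd1 in P1 against E17 (-0.05) and P5 against P1 (-0.16), for Kirrel3 in P14 against P5 (-0.01) and for Xkr4 in P60 against P24 (0.05). With limma-voom it turned for Gfap (-0.16) and Csmd1 (-0.01) in P5 against P1. The cause was not tested. With 1 library left out, values crossed 0 for Kirrel3 in P60 against E17 (-0.59 to 0.15) and P14 against P5 (-0.05 to 0.29), Gfap (-0.50 to 0.65) and Csmd1 (-0.05 to 0.15) in P5 against P1, Ncam1 in P14 against P5 (-0.06 to 0.06), and, without P24 replicate 2, Scn7a in P24 against P14 (-0.06 to 0.19) and Xkr4 in P60 against P24 (-0.17 to 0.10). None of these differences was called.

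The fit with a replicate block ended 1 call, that of Gfap in E17 against E13 (1.28, adjusted p = 0.0645), and changed no other call. That call also ended with library size only (adjusted p = 0.103), no filter (0.0536), limma-voom (0.0798), without the 3 libraries (0.142, where L1cam was at 0.92), and without 6 of the 8 single libraries. Leaving out E13 or taking off the GC trend within stages ended and added no call.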

Other observations

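Melanocyte genes were also measured in the nerve. Of 4 such genes (Mitf, Dct, Pmel and Tyr), 3 were tested, Tyr being at 0 but for 1 count in a P1 library. The 4 summed to between 3.10 and 4.84 CPM at E17, to between 33.0 and 43.5 CPM at P1 and to between 55.2 and 73.4 CPM at P5. Of the 3 tested, 2 were called higher in P1 against E17 and 2 in P5 against P1, and 2 were called lower in P14 against P5, where 11.7%, 5.84% and 12% of all genes were called in either direction. Mitf, the regulator of melanocyte genes, rose from E17 to P1 (log2 fold change of 3.74 ± 0.17, adjusted p = 1.1e-15). With a mean of 31.1 CPM it made up most of the P1 sum, and Dct was not called in that step (1.22 ± 0.55, adjusted p = 0.0972). Pmel and Dct, which encode melanosome proteins, rose from P1 to P5 (1.79 ± 0.30 and 1.99 ± 0.46, adjusted p = 9.6e-05 and 0.00258) and fell from P5 to P14 (-2.41 ± 0.31 and -2.44 ± 0.48, adjusted p = 1.1e-06 and 0.00031). They were singled out after their values were seen. The sum was still between 21.9 and 29.2 CPM at P60, of which Mitf was 23.7 CPM on average, against 2.34 CPM at E17. Dct (0.0654 CPM) and Pmel (1.37 CPM) were then at means below or near those of E17 (0.253 and 1.15 CPM).

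P24 replicate 2 was the highest of the 4 P24 libraries for 6 of the 8 genes (Ncam1, L1cam, Scn7a, Chl1, Csmd1 and Xkr4), with Scn7a at 848 CPM against 533 to 594 CPM and Chl1 at 171 CPM against 106 to 122 CPM. Fibroblast marker sums were at 1770 to 3310 CPM at P24 and at 998 to 1230 CPM at P60, and endothelial marker sums were highest at P60 (283 to 304 CPM).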
